A study of Mus musculus with 6 samples.

Results

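The 10 genes described here encode 4 markers of dividing cells (Mki67, Top2a, Birc5 and Melk) and 6 regulators of mitotic microtubules or of the centrosome (Stmn1, Hmmr, Tpx2, Prc1, Nusap1 and Nek2). They were picked by symbol in the authors' deposited table of mouse islet RNA, which holds 19940 genes, and each of the 10 was found on 1 line. The RNA came from hand-picked pancreatic islets of C57BL6/J mice, 3 samples from pregnant animals at gestational day 14.5 and 3 from nonpregnant littermates. No transgene, deletion or treatment is named for either group, and the labels give no ages. The design text speaks of 5 animals a group, and nothing says whether 1 sample is 1 animal. The table gives 1 mean per group and no value per library, so every level below is the authors' mean without an error, and every p is the authors' own, from a test that the labels do not describe. The comparison asks which islet transcripts differ in pregnancy.

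A dividing cell first copies its DNA and then pulls the copies apart on a spindle of microtubules that grows between the centrosomes. Many genes of this machinery, though not all, are low in resting cells and are transcribed late in the cell cycle. Their RNA in a tissue is therefore often read as a sign of cycling cells. Adult beta cells, the insulin makers of the islet, seldom divide, and pregnancy in rodents is a known setting in which they do.

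In the pregnant group all 10 genes were higher with an adjusted p under 0.05, a mark that 7.57% of all genes in the authors' deposited table passed as higher and 4.15% as lower. At an adjusted p under 0.01, 5.12% of all genes were called higher, and with a log2 ratio of at least 1 besides the 0.05 threshold 2.56% were, and all 10 genes passed either rule. Their fold changes in that authors' deposited table ran from 3.23 for Prc1 to 7.66 for Melk, with a median log2 ratio of 2.31 beside -0.01 for the 15682 genes with at least 10 mean reads. These 10 genes were chosen with this result known, so the count describes them and supports nothing further. Summed over the 10 genes, the authors' means came to 12451 reads in the pregnant and 2714 reads in the nonpregnant group, which is 142 and 32.1 RPM (mean reads after scaling each group to a sum of 1000000). In whole islets, more cells in division, more RNA per dividing cell and a different mix of cells cannot be told apart.

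**Figure D1:**
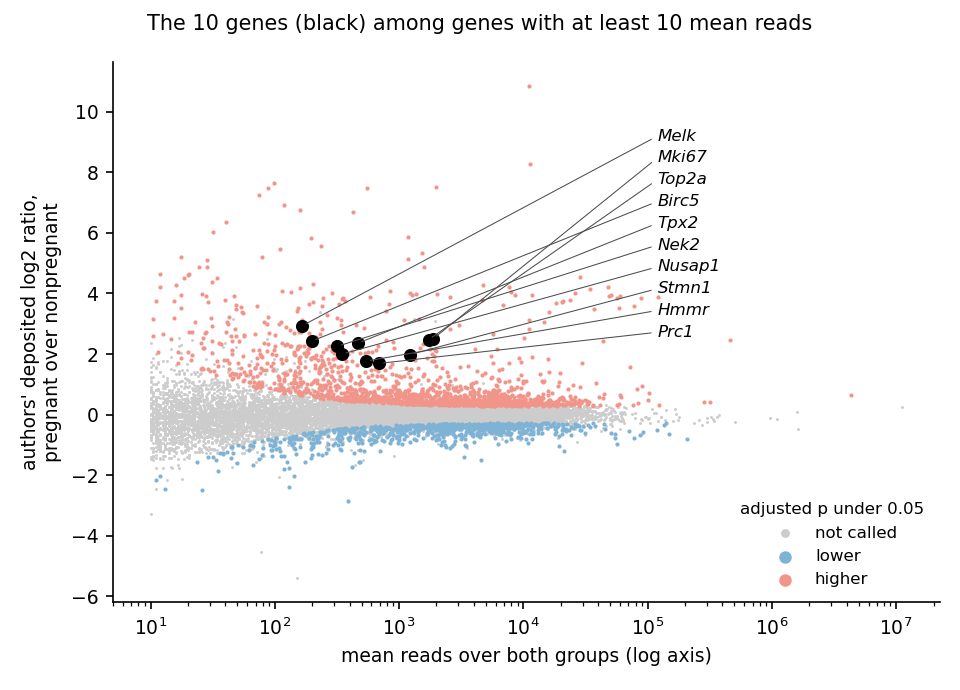
Each point is a gene with at least 10 mean reads, by its mean over both groups (horizontal, log axis) and the log2 ratio of pregnant over nonpregnant from the authors' deposited table (vertical), coloured by whether its adjusted p was under 0.05. The 10 genes, in black, lie between log2 ratios of 1.69 and 2.94, above the 95th percentile of these genes at 0.84.

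Mki67 (ENSMUSG00000031004, minus strand of chromosome 7, 135689784 to 135716361 of GRCm38) encodes Ki-67, the protein that coats mitotic chromosomes and is lost from resting cells. The authors' mean was 575 reads in nonpregnant and 3189 reads in pregnant islets, a 5.67-fold rise (the authors' deposited table, adjusted p = 2.61e-20). Top2a (ENSMUSG00000020914, minus strand of chromosome 11, 98992943 to 99024189) encodes topoisomerase II alpha, which untangles the copied chromosomes. Its authors' mean went from 538 to 2931 reads, 5.57-fold (the authors' deposited table, adjusted p = 2.21e-26). Mki67 and Top2a stayed in nearly the same proportion: per kilobase of annotated exons, the Mki67 level was 0.957 of the Top2a level in the nonpregnant mean and 0.975 in the pregnant mean.

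Birc5 (ENSMUSG00000017716, plus strand of chromosome 11, 117849251 to 117855743) encodes survivin, a subunit of the chromosomal passenger complex that corrects faulty spindle attachments. Its authors' mean was 63 reads in nonpregnant and 334 reads in pregnant islets, 5.37-fold (the authors' deposited table, adjusted p = 1.97e-26). Melk (ENSMUSG00000035683, plus strand of chromosome 4, 44300876 to 44364675) encodes a kinase that is found mainly in dividing cells and belongs to the relatives of AMPK. It had the fewest reads of the 10 genes, with authors' means of 39 and 295, and the largest fold, 7.66 (the authors' deposited table, adjusted p = 9.52e-32). The folds of the 4 marker genes thus lay between 5.37 and 7.66 by the authors' deposited table.

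Stmn1 (ENSMUSG00000028832, plus strand of chromosome 4, 134468320 to 134473843) encodes stathmin, which binds free tubulin and makes microtubules shrink. Its authors' mean went from 504 to 1946 reads, 3.95-fold (the authors' deposited table, adjusted p = 2.03e-20). Tpx2 (ENSMUSG00000027469, plus strand of chromosome 2, 152847964 to 152895321) encodes a spindle assembly factor that switches on the kinase Aurora A. Its authors' mean went from 155 to 782 reads, 5.14-fold (the authors' deposited table, adjusted p = 1.25e-13). Of the microtubule and centrosome genes, Tpx2 had the largest fold.

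Hmmr (ENSMUSG00000020330, minus strand of chromosome 11, 40701395 to 40733422) encodes RHAMM, a hyaluronan-binding protein that also sits on spindle microtubules near the poles. The authors' mean was 252 reads in nonpregnant and 841 reads in pregnant islets, 3.41-fold (the authors' deposited table, adjusted p = 9.17e-09), the weakest p of the 10 genes. Nusap1 (ENSMUSG00000027306, plus strand of chromosome 2, 119618298 to 119651244) encodes a protein that bundles spindle microtubules around the chromosomes. Its authors' mean went from 141 to 551 reads, 3.98-fold (the authors' deposited table, adjusted p = 3.07e-09). The exons of Nusap1 share 172 bases with those of Oip5 on the opposite strand, whose authors' means were 25 and 108 reads. Whether counting used strand is not given, so reads from that stretch cannot be told apart.

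Prc1 (ENSMUSG00000038943, plus strand of chromosome 7, 80294450 to 80316259) encodes the protein that cross-links antiparallel microtubules in the midzone, where the cell is later cut in cytokinesis. Its authors' mean went from 335 to 1056 reads, 3.23-fold (the authors' deposited table, adjusted p = 5.25e-13), the smallest fold of the 10 genes. Its exons share 911 bases with Rccd1 on the opposite strand, which had authors' means of 839 nonpregnant and 769 pregnant reads. Nek2 (ENSMUSG00000026622, plus strand of chromosome 1, 191821444 to 191833050) encodes a kinase that dissolves the linker between the centrosomes before the spindle forms. Its authors' mean went from 112 to 526 reads, 4.77-fold (the authors' deposited table, adjusted p = 2.02e-11). An annotated antisense gene, Gm38037, shares 298 exon bases with Nek2. By the authors' deposited table, the folds of the 6 microtubule and centrosome genes lay between 3.23 and 5.14, all below the 4 markers. That difference could not be tested without values per library, and it holds for these 10 genes only. The 18 other markers of dividing cells described below had folds from 0.82 to 5.6, and the mitotic kinase gene Aurkb rose 6.6-fold.

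**Figure D2:**
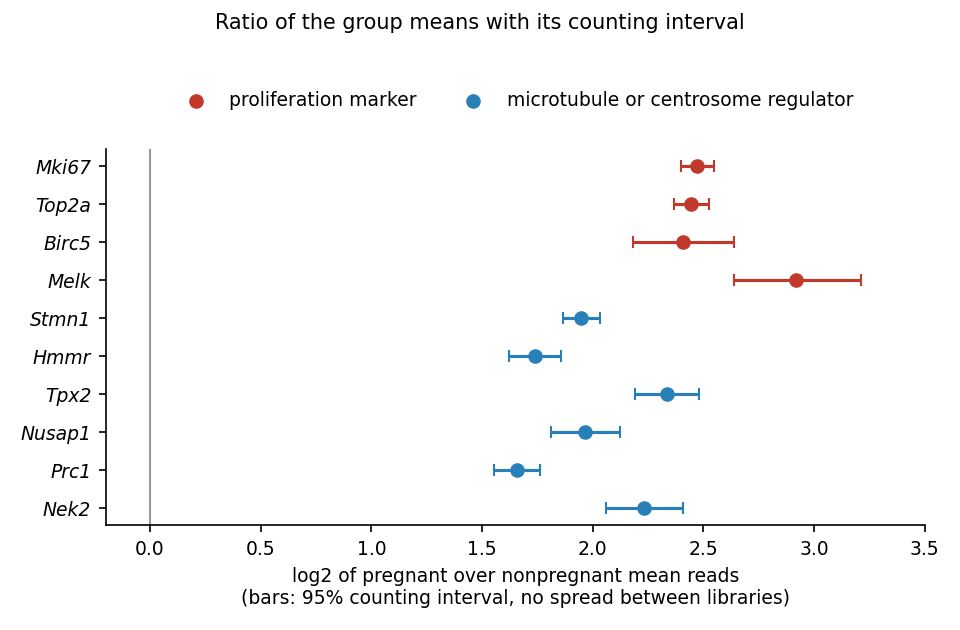
Points give the log2 ratio of the authors' pregnant over nonpregnant mean reads, and bars the 95% interval from counting error alone, taking each mean as 3 libraries. The 4 proliferation markers (red) have larger ratios than the 6 microtubule or centrosome regulators (blue), but the intervals of Mki67, Top2a and Birc5 overlap those of Tpx2 and Nek2.

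Counting error alone left these ratios well apart from 1. Taking each mean as 3 libraries, the exact binomial (Clopper-Pearson) 95% interval of the ratio of means was 6.23 to 9.25 for Melk, 5.27 to 5.84 for Mki67 and 2.94 to 3.39 for Prc1. That interval covers counting error only and holds no spread between animals. It also takes the rounded means as unscaled counts, which is not known. In standard errors from no change, counting error alone gave distances 1.68 (Melk) to 6.69 (Mki67) times those of the authors' p. The intervals are therefore narrower than the authors' p implies, to a different degree for each gene, and their overlaps are description only. Birc5, with an interval of 4.53 to 6.23, could not be separated from Tpx2, with 4.57 to 5.58, or from Nek2, with 4.17 to 5.30, even on this narrow measure. The intervals of Mki67 and of Top2a, at 5.17 to 5.75, also reached into those of Tpx2 and Nek2. Prc1 and Hmmr (3.08 to 3.62) also overlapped.

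On a per-length scale, in RPM per kilobase of annotated exons, Stmn1 stood highest of the 10 genes in both groups, at 3.10 in nonpregnant and 11.6 in pregnant islets. It made up 44.4% of the summed level of the 10 genes in the nonpregnant mean and 39.6% in the pregnant mean. Top2a (0.706 and 3.71) and Mki67 (0.676 and 3.62) came next on this scale in both groups. The lowest levels belonged to Birc5 (0.219 and 1.12) and Melk (0.155 and 1.13), which exchanged places between the groups. Tpx2 moved from the seventh place at 0.392 to the fourth at 1.91, passing Hmmr, which went from 0.549 to 1.77, as well as Prc1 (0.482 and 1.46) and Nusap1 (0.411 and 1.55). Nek2 kept the eighth place, at 0.294 and 1.33. Without a spread between libraries it cannot be said which neighbours in this order differ.

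**Figure D3:**
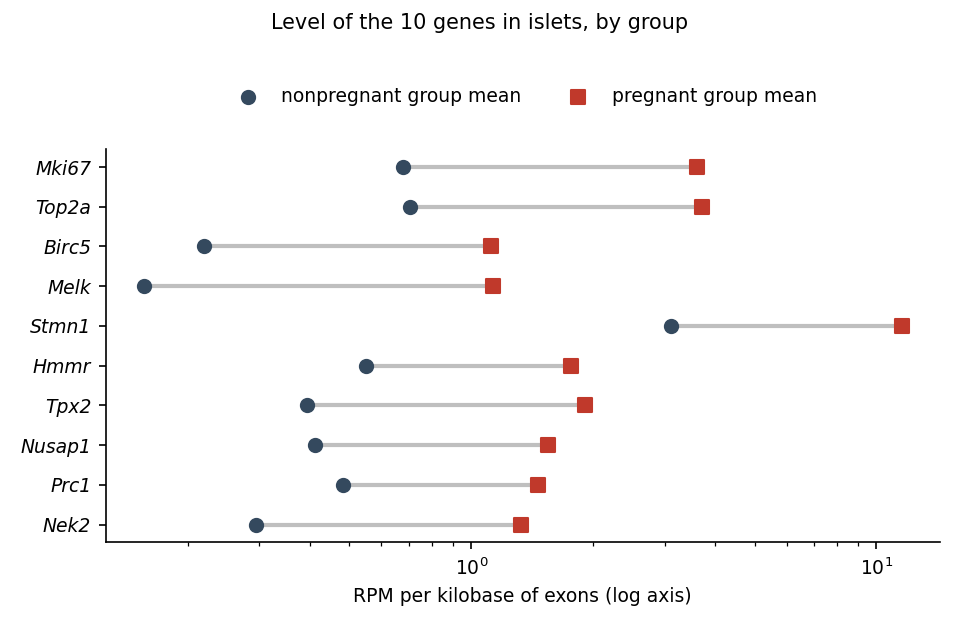
The level of each gene in the nonpregnant (dark circles) and pregnant (red squares) group mean, in RPM per kilobase of exons, on a log axis. Stmn1 is highest in both groups, at 3.10 and 11.6, and in the pregnant mean the other genes lie between 1.12 and 3.71.

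The promoters of the genes are shown because late cell cycle genes often share short elements. The CHR is a site at which the DREAM and MuvB complexes keep such genes silent in resting cells and switch them on before mitosis, and CCAAT boxes bind the factor NF-Y. RefSeq promoter windows on GRCm38.p6, from 250 bases before to 50 bases after the start, were matched for 8 of the 10 genes, and Stmn1 and Tpx2 had none. The 150 bases before the start are printed for the 4 genes with a CHR match in the window, 5′ to 3′ on the gene's strand, with CHR and CCAAT matches on either strand in capitals. These stretches are chr7:135716380-135716529 on the minus strand for Mki67, chr11:99024190-99024339 on the minus strand for Top2a, chr11:40733438-40733587 on the minus strand for Hmmr and chr7:80294326-80294475 on the plus strand for the downstream of the 2 starts of Prc1.
Mki67: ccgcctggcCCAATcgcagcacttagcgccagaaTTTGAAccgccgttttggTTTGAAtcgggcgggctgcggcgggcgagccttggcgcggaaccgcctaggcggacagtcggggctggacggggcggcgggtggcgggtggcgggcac
Top2a: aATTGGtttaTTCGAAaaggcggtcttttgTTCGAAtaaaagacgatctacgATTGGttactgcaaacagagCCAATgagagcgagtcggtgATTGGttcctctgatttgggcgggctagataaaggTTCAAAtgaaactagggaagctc
Hmmr: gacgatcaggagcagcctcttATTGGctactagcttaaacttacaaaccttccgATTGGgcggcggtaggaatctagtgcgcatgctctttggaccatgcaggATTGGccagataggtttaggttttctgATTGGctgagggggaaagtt
Prc1: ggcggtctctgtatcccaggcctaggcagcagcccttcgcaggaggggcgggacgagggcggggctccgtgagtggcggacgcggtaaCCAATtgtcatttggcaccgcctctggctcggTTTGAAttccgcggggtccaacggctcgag

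A CHR, searched as TTTGAA or TTCGAA on either strand, was present in 5 of the 9 windows, which belong to Mki67, Top2a, Hmmr and both starts of Prc1. Of all 32851 RefSeq promoter windows of this length, 19.2% held one. A CCAAT box, searched as CCAAT on either strand, was present in 6 of the 9 windows, the same 5 and that of Nek2, beside 37.4% of all windows. Both together stood in 5 of the 9 windows and in 7.52% of all windows. The 2 windows of Prc1 overlap and hold the same sites, so the window counts include these sites 2 times. By gene, 4 of 8 held a CHR, beside 21.7% of all genes with a window. A CCAAT box was in 5 of 8, beside 41.1%, and both were in 4 of 8, beside 8.61%. No CHR match overlapped a CCAAT match in these windows. Top2a held 4 CHR and 6 CCAAT matches, Mki67 2 and 3, and the only CHR match of Hmmr lay after the start, at bases 9 to 14, with 5 CCAAT matches before it. The windows of Birc5, Melk and Nusap1 held neither motif. The letters GCGGGAA, a form of the E2F site, and the TATA box letters TATAAA were in 0 of the 9 windows, beside 4.6% and 13.6% of all windows. A match is a run of letters and not a measured binding site, and all 8 genes passed the test, with or without one.

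**Figure D4:**
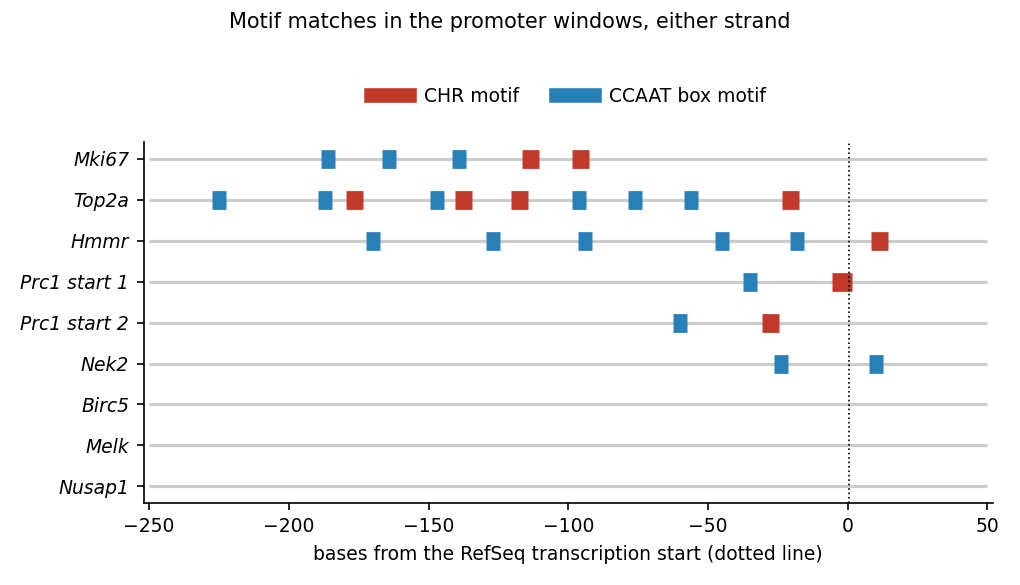
Grey lines are the 9 promoter windows, from 250 bases before to 50 bases after the RefSeq start, and boxes mark CHR (red) and CCAAT (blue) matches by distance from the start. Mki67, Top2a, Hmmr and both Prc1 starts hold both motifs, Nek2 holds CCAAT boxes only, and Birc5, Melk and Nusap1 hold neither.

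Relatives were compared for the 5 genes that belong to larger families. Of their 41 relatives 3 rose and 4 fell, with the largest rise at 2-fold in the authors' deposited table. Over all genes, 7.57% were called higher and 4.15% lower, and every count of called genes below is to be read beside these shares. Top2b, the topoisomerase II that resting cells also make, had authors' means of 8903 nonpregnant and 8346 pregnant reads, a fold of 0.96 (the authors' deposited table, adjusted p = 0.907). The 5 other topoisomerase genes, Top1, Top1mt, Top2b, Top3a and Top3b, had folds of 0.79 to 1.03 in the authors' deposited table, and none was called by the authors' test, with 0 higher and 1 lower at an unadjusted p under 0.05. Top2a made up 2.55% of the summed per-length level of these 6 genes in the nonpregnant and 13.2% in the pregnant mean.

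The 3 other stathmin genes, which are mainly neuronal, were at folds of 0.75 (Stmn2), 1.05 (Stmn3) and 0.68 (Stmn4, with 9 and 5 reads) in the authors' deposited table. By the authors' test 0 of the 3 were called, also at an unadjusted p under 0.05. Stmn3 stood far above Stmn1 per length in nonpregnant islets, at 16.3 beside 3.10, and at 16.0 beside 11.6 in pregnant islets. Stmn1 thereby went from 15.3% to 41.0% of the summed per-length level of the family.

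Among 9 relatives of Birc5 in the inhibitor of apoptosis family, Naip2 rose 1.28-fold and Birc6, a giant ubiquitin ligase, fell to 0.77 (the authors' deposited table, adjusted p = 0.0112 and 0.00468). Birc2 and Birc3, which restrain cell death downstream of TNF receptors, were at 0.89 and 1.01 (the authors' deposited table, adjusted p = 0.453 and 1). The Naip genes are close copies of one another, so their reads may be split among them.

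Of 14 AMPK-related kinase genes, the family of Melk, 0 rose and 3 fell in the authors' deposited table, with 0 higher and 6 lower at an unadjusted p under 0.05. Nuak1 fell to 0.58, Sik2 to 0.72 and Sik3 to 0.77 (the authors' deposited table, adjusted p = 2.88e-10, 0.00135 and 0.00332). The median log2 ratio of these kinases was -0.15.

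The 10 other Nek kinase genes included 2 that rose, Nek6 2-fold and Nek7 1.36-fold (the authors' deposited table, adjusted p = 4.2e-09 and 0.0176). Nek6 and Nek7 are the kinases that Nek9 activates in mitosis. Nek4, Nek10 and Nek11 were not called, at 1.04, 1.33 and 1.31 (the authors' deposited table, adjusted p = 0.936, 0.353 and 0.261). Nek2 went from 0.571% to 2.6% of the summed per-length level of the family.

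**Figure D5:**
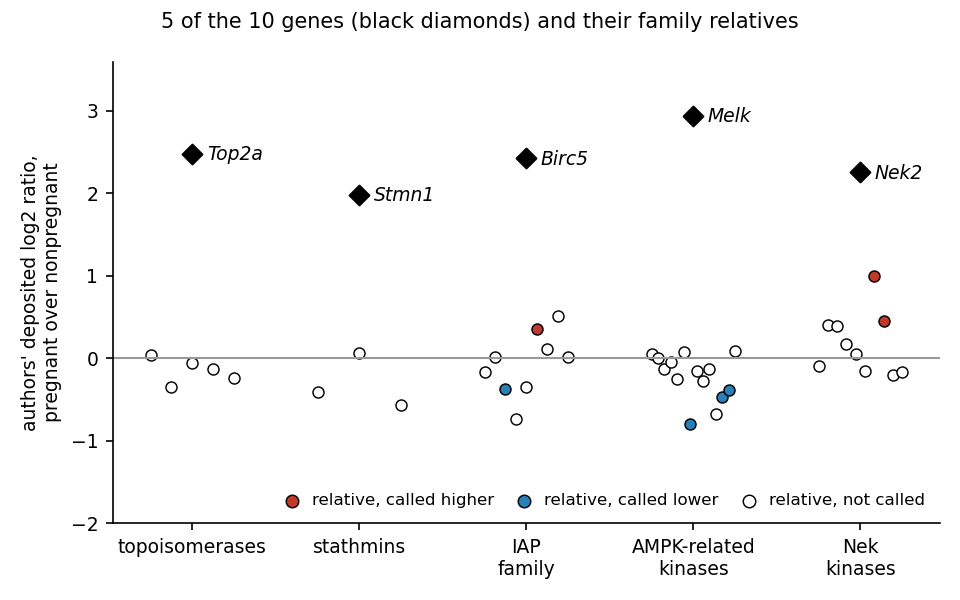
Black diamonds show the deposited log2 ratio of 5 of the genes, and circles those of their family relatives, filled red or blue where the authors' adjusted p was under 0.05 for higher or lower. The 5 genes lie between 1.98 and 2.94, and the relatives at or below 1.00.

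Genes that work beside the 10 genes in mitosis were also higher in large part. Of 10 genes around the chromosomal passenger complex, the setting of Birc5, 8 rose and 0 fell, with a median log2 ratio of 1.46 in the authors' deposited table. Aurkb, the kinase of the complex, rose 6.6-fold, Bub1, the kinase that marks its docking site, 6.51-fold, and Gsg2, which encodes the histone kinase haspin, 6.19-fold (the authors' deposited table, adjusted p = 7.27e-27, 1.67e-30 and 1.18e-10). Cdca2, which encodes a phosphatase-targeting subunit on chromosomes, rose 3.01-fold (the authors' deposited table, adjusted p = 3.88e-14). Cdca2 is also one of the condensin and perichromosomal genes counted below. The 2 genes not called were Ran and Rcc1, which make the Ran-GTP that frees Tpx2 for spindle assembly, at 1.02 and 0.99 (the authors' deposited table, adjusted p = 0.98 and 1). Ran is named here after its value was seen.

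Of 22 spindle assembly and pole genes, 14 rose and 0 fell, with a median log2 ratio of 0.82 in the authors' deposited table. Ckap2l, a spindle pole protein gene, rose 4.82-fold, and the motor genes Kif11, Kif15 and Kifc1 rose 3.57-fold, 3.71-fold and 3.82-fold (the authors' deposited table, adjusted p = 5.88e-34, 1.65e-30, 2.33e-14 and 1.18e-11). Of the 8 genes of the augmin complex, which branches microtubules, Haus4 rose 2.19-fold and Haus1 1.5-fold (the authors' deposited table, adjusted p = 1.2e-08 and 0.00912). The 6 others were not called, with folds from 0.91 for Haus3 to 1.12 for Haus5 and Haus8 at 1.02 in the authors' deposited table. The augmin genes other than Haus8 are named here after their values were seen.

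Among 13 genes of the central spindle and cytokinesis, where Prc1 acts, 10 rose and 0 fell, with a median log2 ratio of 1.45 in the authors' deposited table. Kif4, the motor that carries Prc1 to microtubule ends, rose 4.62-fold (the authors' deposited table, adjusted p = 6.58e-15). Anln, the anillin gene of the contractile ring, rose 4.32-fold, Plk1, a mitotic kinase that binds Prc1, 2.84-fold, and the motor gene Kif20a 2.4-fold (the authors' deposited table, adjusted p = 2.97e-15, 1.62e-13 and 4.34e-12). Pdcd6ip, a membrane abscission gene with many other duties, was at 0.95 (the authors' deposited table, adjusted p = 0.847).

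Of 12 condensin and perichromosomal genes, the surroundings of Ki-67 and topoisomerase II alpha on the chromosome, 8 rose and 0 fell, with a median log2 ratio of 0.72 in the authors' deposited table. The condensin genes Ncaph, Ncapg and Ncapg2 rose 5.07-fold, 3.13-fold and 2.36-fold (the authors' deposited table, adjusted p = 1.69e-21, 2.24e-13 and 1.41e-13). Mki67ip, which encodes a nucleolar partner of Ki-67, was at 1-fold (the authors' deposited table, adjusted p = 1). A list of 10 targets and neighbours of Nek2 held genes of the centrosome linker, of centriole copying and of the Cdc25 phosphatases. Of these, 3 rose and 0 fell in the authors' deposited table. These were Cdc25c, a phosphatase that starts mitosis, at 6.03-fold, Stil, a centriole assembly gene, at 3.23-fold, and Plk4, the kinase of centriole copying, at 1.52-fold (the authors' deposited table, adjusted p = 1.95e-08, 8.36e-08 and 0.00385). Cep250, which encodes the linker protein that Nek2 phosphorylates, was at 1-fold (the authors' deposited table, adjusted p = 1).

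Other microtubule genes were read beside the 11.7% of all genes called in either direction and the 7.57% called higher. Of 19 interphase and neuronal microtubule-associated protein genes, 1 rose and 1 fell, with a median log2 ratio of -0.03 in the authors' deposited table. Mtap6, which encodes a protein of cold-stable microtubules, rose 1.56-fold and Camsap1, a minus-end binder, fell to 0.79 (the authors' deposited table, adjusted p = 1.35e-07 and 0.0226). Of 17 tubulin genes, 4 rose and 0 fell, with a median log2 ratio of 0.09. Tuba1c, Tubg2, Tubb5 and Tubg1 rose, by the authors' deposited table, between 1.25-fold and 1.4-fold, and Tubg1 is also one of the spindle assembly and pole genes counted above. Tubulin genes are close copies of one another, which makes single values uncertain. Of 8 hyaluronan genes, the other side of Hmmr, 0 rose and 1 fell, with 0 higher and 3 lower at an unadjusted p under 0.05 in the authors' deposited table. Has3, a hyaluronan synthase, fell to 0.59, while Cd44, the main hyaluronan receptor, was at 0.8 (the authors' deposited table, adjusted p = 0.011 and 0.0684).

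Known regulators of late cell cycle promoters were mixed. Of 23 such genes, 6 rose and 0 fell, with a median log2 ratio of 0.13 in the authors' deposited table. The repressors E2f8 and E2f7 rose 6.49-fold and 3.9-fold (the authors' deposited table, adjusted p = 2.57e-24 and 2.73e-19). Foxm1, an activator of mitotic genes, rose 3.47-fold and E2f1 1.69-fold (the authors' deposited table, adjusted p = 3.86e-14 and 4.03e-09). Rbbp4, a MuvB subunit, was at 0.99 (the authors' deposited table, adjusted p = 0.99). A list of 17 genes covered the anaphase-promoting complex, the ubiquitin ligase that removes several mitotic proteins, with its activators, conjugating enzymes and an inhibitor. Of these, 3 rose and 0 fell in the authors' deposited table. These were Cdc20, its mitotic activator, at 4.31-fold, Ube2c at 3.56-fold and Ube2s at 1.5-fold, both ubiquitin-conjugating enzymes of the complex, (the authors' deposited table, adjusted p = 5.22e-05, 8.24e-05 and 2.3e-06). The core subunits of the complex were not called, with folds from 0.94 to 1.2 in the authors' deposited table. Ube2c is also counted among the other markers of dividing cells below.

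Of 18 other widely used markers of dividing cells, 16 rose and 0 fell in the authors' deposited table, with a median log2 ratio of 1.76. Cdc6, a licensing factor, rose 5.6-fold, Pbk, a mitotic kinase, 5.48-fold, Cdk1, the kinase that drives mitosis, 4.92-fold and Rrm2, of nucleotide synthesis, 4.08-fold (the authors' deposited table, adjusted p = 1.18e-27, 1.22e-12, 3.41e-19 and 3.72e-35). Genes of cell cycle exit split, with 2 higher and 2 lower of 12 in the authors' deposited table. Cdkn2c and Cdkn2d, inhibitors of the G1 kinases, rose 2.45-fold and 1.69-fold, and Cdkn1b, the p27 gene, and Btg1 fell to 0.78 and 0.6 (the authors' deposited table, adjusted p = 2.15e-17, 0.0178, 0.0095 and 5.61e-06).

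The genes most like the 10, by distance of the log2 ratio and of log2 pregnant mean reads to their medians, were Cdk1, Slfn9, Mcm3, Rrm2 and Rasgrp1. Their folds in the authors' deposited table were 4.92, 5.63, 4.13, 4.08 and 4.2. This likeness rests on 2 group means and not on a pattern across samples.

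The hormone genes were abundant, as the islet label implies, and Ins2 had the most reads of the 9 endocrine markers, with authors' means of 10394603 nonpregnant and 11981604 pregnant reads. Of these markers 1 was higher and 0 lower, with 1 higher and 1 lower at an unadjusted p under 0.05. The higher gene was Ins1, at 1.55-fold, and Gcg, the glucagon gene, was at 0.72 (the authors' deposited table, adjusted p = 1.61e-08 and 0.0772). Markers of other cells that could divide in the preparation were read in the same means. Endothelial markers were called in 0 of 9, also at an unadjusted p under 0.05, with a summed level of 468 RPM in nonpregnant and 438 in pregnant islets. Lymphocyte markers were also called in 0 of 9 at either p, with 19.0 and 19.2 RPM. Macrophage markers were higher in 1 of 8, and in 3 at an unadjusted p under 0.05, with 86.2 and 125 RPM. The called gene was Lyz2, at 1.32-fold (the authors' deposited table, adjusted p = 0.0319). C1qa, a complement gene, was not called and went from 3195 to 6370 reads, 2.05-fold (the authors' deposited table, adjusted p = 0.0752). The other macrophage markers ran from 0.97 for Cd68 to 1.74 for Mrc1, none of them called. The median log2 ratio of the list was 0.18. Fibroblast and pericyte markers were higher in 1 of 8 at either p, with 146 and 154 RPM but a median log2 ratio of -0.36. The called gene was Rgs5, at 1.23-fold (the authors' deposited table, adjusted p = 0.0412). With 8683 nonpregnant and 10383 pregnant reads, Rgs5 held most reads of this list, so the summed level mainly follows it. Ductal markers were higher in 1 of 6, and in 2 at an unadjusted p under 0.05 (207 and 212 RPM). The called gene was Muc1, at 2.64-fold (the authors' deposited table, adjusted p = 0.0216). Krt7, with 15400 nonpregnant and 15895 pregnant reads, held most reads of the ductal list, so its summed level mainly follows Krt7. Schwann and neural markers were higher in 0 of 5 (18.9 and 15.0 RPM, with 0 higher and 1 lower at an unadjusted p under 0.05). Acinar markers were higher in 10 of 12, and in 11 at an unadjusted p under 0.05. Their summed level was 947 RPM in nonpregnant and 12498 in pregnant islets, with a median log2 ratio of 3.88. That median lies above the log2 ratio of each of the 10 genes. Ctrb1, with the most reads of this list, went from 15653 to 226845 reads, 14.88-fold (the authors' deposited table, adjusted p = 0.0126). Amy1 and Amy2a5 were not called, and Amy2a5 had 0 nonpregnant and 18 pregnant reads. Ins1, Gcg, C1qa, Lyz2, Cd68, Mrc1, Rgs5, Muc1, Krt7, Ctrb1, Amy1 and Amy2a5 are named here after their values were seen. The part of any of these cells in the rise of the 10 genes was not tested.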

How the data were processed

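Islet RNA was sequenced, and the submitters' processing notes name the build GRCm38, the aligners Bowtie, TopHat and TopHat2 (2.0.12) and the counter HTSeq (0.5.3p3). The authors deposited a rounded mean of reads per gene and group, used here as a score and not as a count of 1 library. They also deposited a fold change (a linear ratio), a log2 ratio, a p-value and an adjusted p-value per gene, per the file headers. Their test, any scaling and the use of strand are not given in the sources used here. The authors' means summed to 87654449 pregnant and 84493872 nonpregnant reads.

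Of 19963 lines, 21 genes repeated with identical values were counted once. Exon lengths and coordinates came from GENCODE M21, which held 96.6% of the genes. Genes with an adjusted p under 0.05 were called. The design assumed no values per library, and no fit over samples was made. Counting intervals, the Benjamini-Hochberg code and the motif search were tested on simulated data. The simulated counts for the intervals held counting error only, so that test checks the code and not the fit to these data. All 10 genes and, in each list, the 4 smallest p and the largest p were named, or all genes of lists up to 6, although not every gene the rule allows is printed. The result of 1 further marker list is not reported here. The genes and lists were chosen with earlier results of these data known. Alternatives covered the threshold, low reads, pseudocount, scaling and promoter window. Python 3.11.15, pandas 2.3.3, numpy 2.4.6 and scipy 1.17.1 were used.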

Additional observations from a re-analysis of the deposited data

How the results depend on the processing

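The 10 genes stayed called higher at an adjusted p under 0.01, with Benjamini-Hochberg values recomputed over all genes or over those with at least 10 mean reads, and with a log2 ratio of at least 1. Their log2 ratios moved by -0.17 to 0.01 under a pseudocount of 0 or 5, scaling to summed reads with or without acinar and insulin genes, and centring on the median gene. An adjusted p under 0.01, a stricter threshold by construction, left fewer calls in several lists. The higher calls fell to 13 spindle assembly and pole genes, 4 regulators of late cell cycle promoters and 2 tubulins. They also fell to 1 Nek kinase, 1 gene of cell cycle exit and 0 genes of the inhibitor of apoptosis family. The lower calls fell to 0 hyaluronan genes and 0 interphase microtubule genes. With Benjamini-Hochberg values over genes with at least 10 mean reads, 4 AMPK-related kinases were called lower. By the same values, 4 genes of the list around the anaphase-promoting complex were called higher. Narrowing the promoter window to 100 bases before the start left 4 of 8 genes with a CHR, beside 9.87% of all genes with a window. A CCAAT box was left in 4, beside 26.3%, and both motifs in 3, beside 2.4%. No paired analysis was possible because the deposited columns are group means without replicate numbers. For the same reason, leaving out single replicates, edgeR and DESeq2 were not run.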

Other observations

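Of the 18 other markers of dividing cells, the 2 that were not called were Tk1 and Tyms. Tk1, which encodes thymidine kinase, had authors' means of 329 nonpregnant and 437 pregnant reads, and Tyms, which encodes thymidylate synthase, 3079 and 2454. Their folds in the authors' deposited table were 1.36 and 0.82 (adjusted p = 0.0977 and 0.0645). Tyms is named here after its value was seen.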
